A study of Mus musculus with 12 samples.

Results

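The circadian clock genes and DEC repressors described here are 10 genes: Ciart, Bhlhe40, Bhlhe41, Per1, Per2, Cry1, Nr1d1, Nr1d2, Dbp and Rora. They were found on the Affymetrix Mouse430_2 array by symbol, older names included (Gm129 for Ciart, Bhlhb2 for Bhlhe40, Bhlhb3 for Bhlhe41), as 23 of the 45037 probe sets that are not controls. Of these, 12 probe sets of 8 genes had a mean signal of at least 100 over the 12 arrays and were tested among 18903. The other 11 were treated as low, and Bhlhe41 and Per2 had only low probe sets. Nearest to this limit, 1 Dbp probe set lay inside at a mean of 119 (1438211_s_at) and the other outside at 89.3 (1418174_at).

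The cells were primary fibroblasts of 6 lines, made from mouse embryos at e14.5 (embryonic days), and RNA of each line was profiled on 1 array after 6 h in hypoxia (0.1% O2) and 1 after 6 h in normoxia (21% O2). Treatment began with fresh medium containing 10% serum, equilibrated beforehand at the oxygen level used. The 4 groups, of 3 arrays each, were triCH1 hypoxia, triCH1 normoxia, control hypoxia and control normoxia. Every line, controls included, had received Cre recombinase by adenovirus at passage 3 and had then been expanded at least 100 fold.

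CBP and p300, encoded by Crebbp and Ep300, are paralogous coactivators whose CH1 domain binds the transactivation domain of the hypoxia-inducible factor HIF-1α. The line triCH1flox1 carried CBP CH1/flox;p300 CH1/CH1, in which 3 of 4 alleles lack CH1 and the remaining CBP allele is floxed. Lines triCH1flox2_1 and triCH1flox2_2 carried CBP CH1/CH1;p300 CH1/flox, with the remaining p300 allele floxed. The control line flox1 carried 1 floxed CBP allele (CBP+/flox), and flox2_1 and flox2_2 carried 1 floxed p300 allele (p300 +/flox), so the controls are not wild type. Cre recombinase deletes floxed segments, and how fully it did so in each line was not tested here. How many embryos made up a line, and the time of day at lysis, are not given in the sources used here.

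In the mammalian clock, CLOCK and BMAL1 bind E-box sequences and drive their own repressors, among them the PER and CRY proteins. CIART and the DEC proteins BHLHE40 and BHLHE41 also repress this activation, while the nuclear receptors RORα and REV-ERB (Nr1d1, Nr1d2) activate and repress Bmal1. Fibroblasts keep such a clock, and fresh serum can reset it. HIF-1 is built from bHLH-PAS proteins, as CLOCK and BMAL1 are, and Bhlhe40 is a well-known HIF-1 target.

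All values are signals in the authors' scaled units, without replicate arrays of any sample. Array scale factors were 2.57 to 4.28 and median signals 57.2 to 76.1. The 8 fibroblast markers had mean signals of 218 to 44240. On single arrays the 2 lowest varied widely, Pdgfra from 14.7 to 774.8 and Dcn from 12.1 to 856.2. Of the other markers, 2 of 4 macrophage, 0 of 4 endothelial, 2 of 4 epithelial, 1 of 3 muscle and 1 of 3 neural genes averaged at least 100. The summed epithelial level moved with hypoxia, at 3330 to 3764 in triCH1 hypoxia against 1216 to 2027 in triCH1 normoxia, and at 5740 to 7460 in control hypoxia against 1170 to 2131 in control normoxia. Krt19 made up most of it (mean 3118), Cdh1 averaged 39.5, no epithelial marker was at 0, and their part in the results below was not tested. Bnip3, a standard HIF-1 target, was 21.3 times as high in hypoxia as in normoxia in triCH1 lines and 22.2 times in control lines (ratios of group means). Egln3, another such target, was 4.69 times as high in triCH1 lines and 12.4 times in control lines. For the targeted genes, the Crebbp signal (1435224_at) was 698.7 to 882.2 in triCH1flox1 and flox1, whose floxed allele is CBP, against 922.2 to 1852.4 in the other lines. Ep300 (1434765_at) was 231.4 to 539.5 in triCH1flox2_1 and triCH1flox2_2 and 206.7 to 468.4 in flox2_1 and flox2_2, whose floxed allele is p300, against 412.3 to 836.4 in triCH1flox1 and flox1. Whether these probe sets lie in the deleted parts is not given in the sources used here.

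Of the 8 tested genes, 3 were called higher in hypoxia: Ciart, Bhlhe40 and Rora. Averaged over both line types, all 7 of their tested probe sets were higher at an adjusted p under 0.05, and none of the 12 was lower. These adjusted p-values come from limma with Benjamini-Hochberg adjustment over all 18903 probe sets. Of all tested probe sets, 1.42% were called higher and 0.328% lower in the same comparison. The same 7 were higher in 6 of 6 lines, as were 5.14% of all tested probe sets. With 1 probe set per gene, the median mean response of the 8 tested members was 0.32 on the log2(signal + 20) scale, against 0.00 for the 17 tested genes of a wider clock list. Over the 12 probe sets, 5 of them Rora, it was 1.36, against -0.03 for all tested probe sets. Members and the wider list were chosen with earlier results of these data known. The shares and medians therefore describe the set and do not test it. Ciart and the Rora probe sets averaged under 100 over the 6 normoxia arrays and so passed the limit on signal through the hypoxia arrays. In bulk RNA, a change in the share of cells and a change in RNA per cell cannot be told apart.

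**Figure D1:**
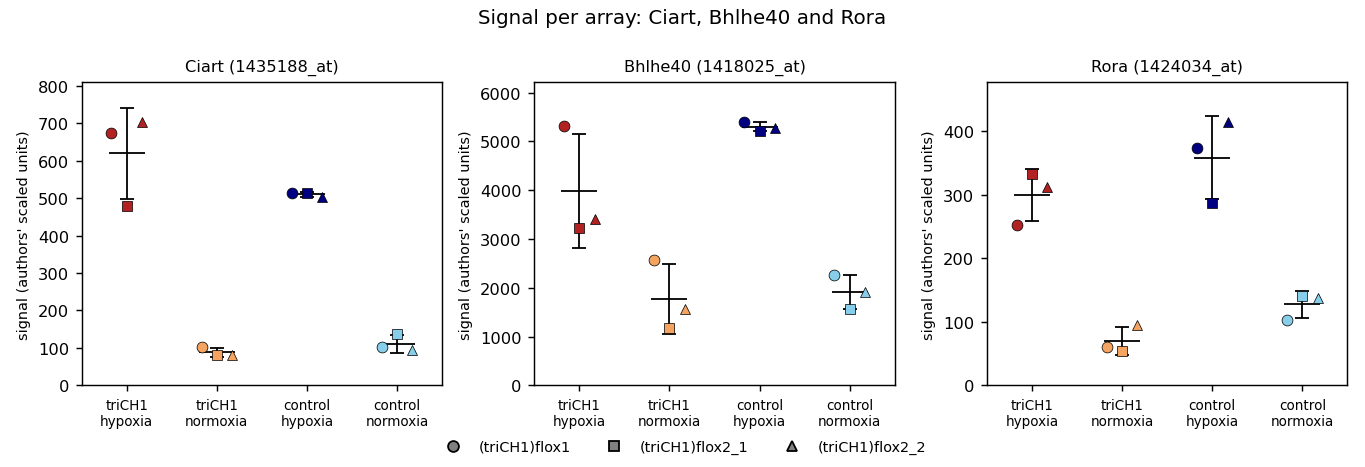
Signal of Ciart (1435188_at), Bhlhe40 (1418025_at) and Rora (1424034_at) on each of the 12 arrays, in the authors' scaled units, by group. Symbols mark lines, dashes the group mean and bars the SD of 3 arrays. In each panel every hypoxia array of a line type lies above every normoxia array of that type, as with Ciart at 479.1 to 704.6 in triCH1 hypoxia against 80.4 to 102.4 in triCH1 normoxia.

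Ciart, also called Chrono, encodes a repressor that binds BMAL1, and showed the largest response of the 12 probe sets except for 1 of Rora. Its only probe set (1435188_at) gave 675.2, 479.1 and 704.6 in hypoxia against 102.4, 80.4 and 80.9 in normoxia in triCH1flox1, triCH1flox2_1 and triCH1flox2_2. The control lines flox1, flox2_1 and flox2_2 gave 513.9, 514.2 and 502.9 in hypoxia against 101.7, 136.3 and 93.1 in normoxia. The hypoxia and normoxia groups were widely separated in both line types, and the control hypoxia arrays lay close together (510 ± 6.44, SD, n = 3) where the triCH1 hypoxia arrays spread more (620 ± 123). The response was 2.55 ± 0.22 on the log2 scale in triCH1 lines (SE, n = 3 lines, limma adjusted p = 2.32e-05). In control lines it was 2.04 ± 0.22 (limma adjusted p = 0.000103). As ratios of group mean signals, hypoxia was 7.05 times normoxia in triCH1 lines and 4.62 times in control lines. Both calls held in every alternative setting and with any array or line left out, and log2 responses of single lines ranged between 1.77 and 2.84.

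The promoter of Ciart is shown because it is rich in E-boxes and both calls of its gene held in every setting. RefSeq (GRCm38.p6) places the window of 250 bases before to 50 after the start at chr3:95882179-95882478, minus strand. Capitals in this and the later windows mark ACGTG and GCGTG, the core of the HIF-1 site, read on either strand, and the canonical E-box CACGTG holds ACGTG on both.
Ciart: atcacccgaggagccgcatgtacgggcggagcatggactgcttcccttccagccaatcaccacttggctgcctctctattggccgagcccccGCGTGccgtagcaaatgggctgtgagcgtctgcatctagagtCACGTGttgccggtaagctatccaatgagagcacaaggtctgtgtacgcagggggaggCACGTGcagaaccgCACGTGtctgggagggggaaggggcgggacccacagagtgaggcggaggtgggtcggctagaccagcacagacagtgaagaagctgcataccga
The Ciart window held 3 copies of CACGTG, beginning 116, 58 and 44 bases before the start, and 1 copy of GCGTG at 158 bases before it. These 3 account for all 6 matches of ACGTG. Among 32851 RefSeq promoter windows of the same length, 7.15% held CACGTG at all and 0.0883% (29 windows) held 3 or more. A match describes letters only and shows no binding.

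Bhlhe40 encodes DEC1, a bHLH protein that binds E-boxes and represses clock output, and it was far above the limit on signal in every array. Its probe set (1418025_at) gave 5324, 3229.2 and 3404.4 in hypoxia against 2575, 1169 and 1560.6 in normoxia in triCH1flox1, triCH1flox2_1 and triCH1flox2_2. The control lines flox1, flox2_1 and flox2_2 gave 5404.6, 5218.8 and 5277.1 in hypoxia against 2261, 1570.9 and 1913.5 in normoxia. Hypoxia and normoxia arrays did not overlap within either line type, and triCH1flox1 was the highest triCH1 line in both conditions. Over both line types the response was 1.34 ± 0.18 (SE, limma adjusted p = 0.000713), between 1.04 and 1.72 in single lines, and it was called in every setting and omission.

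Within line types the Bhlhe40 calls were less secure in the main fit, which does not use the pairing of arrays by line. In triCH1 lines the response was 1.20 ± 0.26 (limma adjusted p = 0.0574), and it was not called. With the line as a replicate block the limma adjusted p was 0.000261, and the call was also gained with quantile normalization (0.0461), with floxed p300 lines alone (0.0205) and with 1 value per gene (0.0489). It was 0.00952 without line triCH1flox1 and 0.00417 without the normoxia array of that line alone. In control lines the response of 1.47 ± 0.26 was called (limma adjusted p = 0.00999), and with the line as a replicate block the limma adjusted p was 2.55e-05. In the main fit that call was lost without line flox1 (limma adjusted p = 0.081), flox2_1 (0.187) or flox2_2 (0.149). It was also lost without the hypoxia array of flox1 (0.0521) or flox2_1 (0.0502) or the normoxia array of flox2_1 (0.0586).

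Bhlhe41, which encodes DEC2, the close paralogue of DEC1, gave only low signals. Its brighter probe set (1421099_at) read 104.1, 60.6 and 68.6 in hypoxia against 71, 43.6 and 57.9 in normoxia in triCH1flox1, triCH1flox2_1 and triCH1flox2_2. In flox1, flox2_1 and flox2_2 it read 80.1, 26.4 and 7.2 in hypoxia against 70.7, 68.9 and 49.5 in normoxia. All 3 triCH1 lines were higher in hypoxia, while control lines went both ways, and at a mean of 59.1 it was not tested. The other probe set (1457096_at) averaged 3.84 with a highest value of 6.7.

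**Figure D2:**
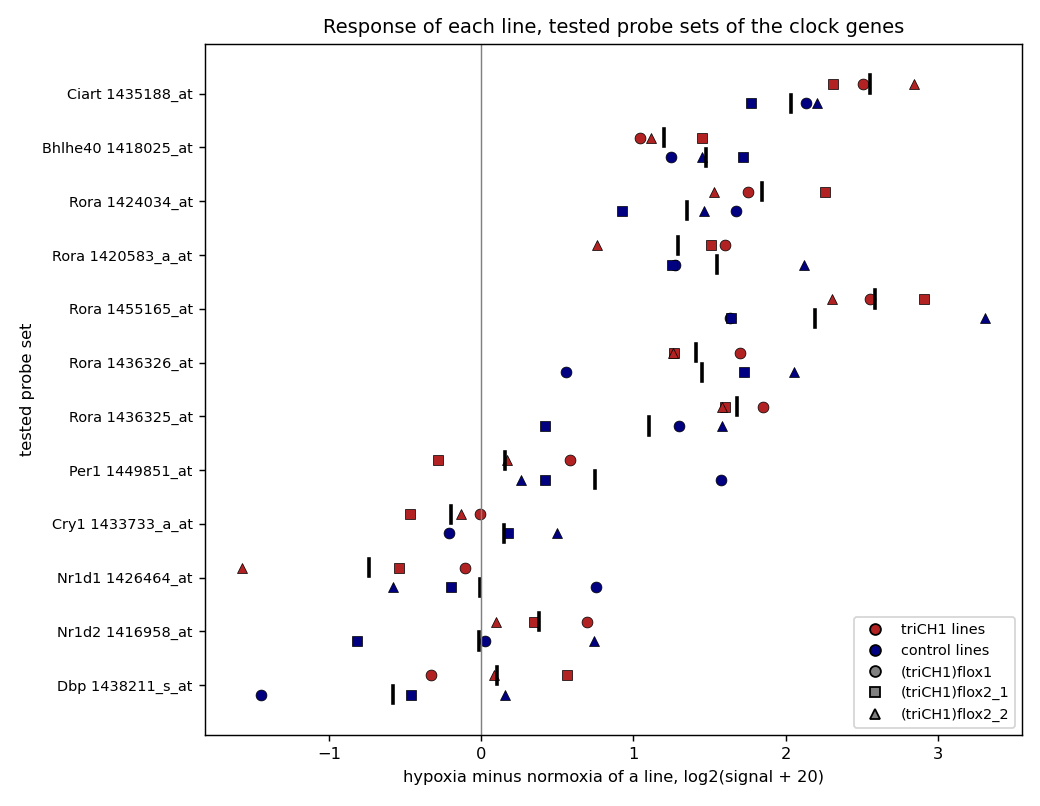
Response of each of the 6 lines (hypoxia minus normoxia, log2(signal + 20)) for the 12 tested probe sets, triCH1 lines above control lines in each row. Symbols mark lines and vertical dashes the mean of 3 lines. All lines lie above 0 for Ciart, Bhlhe40 and the 5 Rora probe sets, and lines fall on both sides of 0 for Per1, Cry1, Nr1d1, Nr1d2 and Dbp.

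Rora encodes RORα, a nuclear receptor that activates Bmal1 through ROR elements, and 9 probe sets represent it, of which 5 were tested. These probe sets report on 1 gene and are not independent of each other. The one with the highest mean (1424034_at) gave 253.2, 332.1 and 312 in hypoxia against 61.1, 53.4 and 95.1 in normoxia in triCH1flox1, triCH1flox2_1 and triCH1flox2_2. In flox1, flox2_1 and flox2_2 it gave 374.4, 286.8 and 415.3 in hypoxia against 103.5, 141.4 and 137.8 in normoxia. The hypoxia arrays were above all normoxia arrays, across line types too. Over both line types the response was 1.60 ± 0.18 (SE, limma adjusted p = 9.35e-05).

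By line type, this Rora probe set changed by 1.85 ± 0.25 in triCH1 lines (limma adjusted p = 0.00154) and by 1.36 ± 0.25 in control lines (limma adjusted p = 0.0164). The triCH1 call was lost without line triCH1flox2_1 (limma adjusted p = 0.0553). The control call was lost without line flox1 (0.357), flox2_1 (0.0679) or flox2_2 (0.232), without the hypoxia array of flox1 (0.0921) or flox2_2 (0.114), without the normoxia array of flox1 (0.103), with no limit on signal (0.0634), and in the floxed p300 lines alone (0.345), all limma adjusted p-values.

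The other 4 tested Rora probe sets moved the same way in all 6 lines. The steepest, 1455165_at, read 295.5, 242 and 133.6 in hypoxia against 33.8, 14.9 and 11.1 in normoxia in triCH1flox1, triCH1flox2_1 and triCH1flox2_2. It read 299.1, 362.9 and 335.7 in hypoxia against 82.9, 102.5 and 15.8 in normoxia in flox1, flox2_1 and flox2_2. Its normoxia values in the triCH1 lines and in flox2_2 lie close to the offset of 20 that was added before taking logs. The log2 responses of 2.59 ± 0.44 in triCH1 lines (limma adjusted p = 0.00974) and 2.20 ± 0.44 in control lines (limma adjusted p = 0.0281) therefore depend on this offset. Single control lines were uneven, at 1.63 in flox1, 1.64 in flox2_1 and 3.31 in flox2_2. With an offset of 1 the control call was lost (limma adjusted p = 0.102), as it was with no limit on signal (0.0524), with only the arrays of the contrast (0.0524) and with floxed p300 lines alone (0.116). The triCH1 call was lost with floxed p300 lines alone (limma adjusted p = 0.122). The mean response over both line types was 2.39 ± 0.31 (limma adjusted p = 0.000442).

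The remaining tested Rora probe sets gave mean responses of 1.42 ± 0.21 (1420583_a_at, limma adjusted p = 0.00156), 1.43 ± 0.21 (1436326_at, limma adjusted p = 0.00156) and 1.39 ± 0.23 (1436325_at, limma adjusted p = 0.00346). The last was not called in the floxed p300 lines alone (limma adjusted p = 0.0667). In single line types, 1420583_a_at and 1436326_at were called in control lines (limma adjusted p = 0.0205 and 0.0353) and 1436325_at in triCH1 lines (limma adjusted p = 0.0248). Calls of these 4 Rora probe sets within 1 line type were lost in 6 to 13 of 18 omissions of an array or line, those in control lines without flox2_1 or flox2_2 and those in triCH1 lines without any 1 of the 3 lines. The control calls of Rora 1420583_a_at and 1436326_at were also lost with no limit on signal (limma adjusted p = 0.0634 and 0.131) and with only the arrays of the contrast (0.0608 and 0.124), and that of 1420583_a_at with floxed p300 lines alone (0.0691). The triCH1 call of Rora 1436325_at was lost in the same 3 settings (limma adjusted p = 0.0798, 0.114 and 0.309). Of the 4 low Rora probe sets, 1458129_at (mean 69.1) was higher in hypoxia in 6 of 6 lines, 1458145_at (41.8) and 1441085_at (27.1) in 5, and 1424035_at (60.9) in 4.

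**Figure D3:**
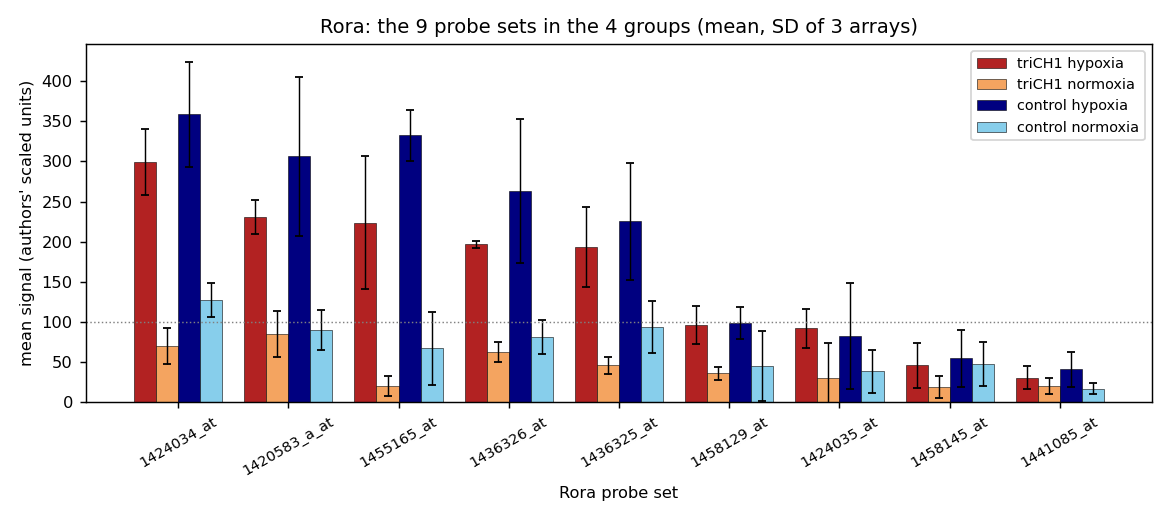
Mean signal of the 9 Rora probe sets in the 4 groups, in the authors' scaled units, with bars for the SD of 3 arrays and a dotted line at 100. The 5 tested probe sets have group means of 194 to 359 in hypoxia against 19.9 to 128 in normoxia.

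The only RefSeq window of Rora used here is shown beside that of Ciart. Its window (chr9:68653536-68653835, plus strand) held 1 match each of ACGTG and GCGTG and none of CACGTG.
Rora: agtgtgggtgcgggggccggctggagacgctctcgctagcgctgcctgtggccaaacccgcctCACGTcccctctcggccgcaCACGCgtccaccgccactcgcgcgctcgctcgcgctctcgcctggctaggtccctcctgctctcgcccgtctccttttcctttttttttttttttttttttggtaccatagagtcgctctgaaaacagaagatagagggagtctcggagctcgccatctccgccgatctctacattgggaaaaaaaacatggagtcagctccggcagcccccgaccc
Both Rora matches lie on the opposite strand, 187 and 167 bases before the start. Over all windows, 19.6% held ACGTG and 32.4% held GCGTG, so neither match sets this window apart. Whether the tested Rora probe sets report transcripts from this start was not tested.

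Across the 10 genes, 8 had RefSeq windows, 9 windows in all because Per1 has a pair of them, and Bhlhe40 and Per2 are named without a sequence. CACGTG was found in 4 of 9 windows, those of Ciart, Bhlhe41, Cry1 and the upstream start of Per1. The Cry1 window (chr10:85185005-85185304, minus strand) is shown as 1 of these 4, picked with the result of its gene, not called, known. No link between matches and responses was tested.
Cry1: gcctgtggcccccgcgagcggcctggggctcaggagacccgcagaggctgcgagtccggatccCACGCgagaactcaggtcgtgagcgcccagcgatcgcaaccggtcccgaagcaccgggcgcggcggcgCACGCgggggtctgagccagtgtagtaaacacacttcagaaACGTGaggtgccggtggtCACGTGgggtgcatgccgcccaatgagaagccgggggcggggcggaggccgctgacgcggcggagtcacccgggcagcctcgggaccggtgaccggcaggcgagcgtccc
It held ACGTG 3 times, GCGTG 2 times and CACGTG 1 time, the last beginning 60 bases before the start. The sites searched for other clock inputs were the cAMP response element TGACGTCA, the D-box forms TTATGTAA and TTACGTAA, and the nuclear receptor core AGGTCA, on both strands. The first 3 had no match in the 9 windows, against 1.79%, 0.938% and 0.119% of all windows. AGGTCA was in 2 of 9 windows, those of Per1 and Nr1d2, and in 16.3% of all. These searches cover 300 bases a gene and say nothing of sites outside them.

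Per1 and Per2 encode the PERIOD proteins, which enter the nucleus with the cryptochromes and repress CLOCK and BMAL1. The Per1 probe set (1449851_at) gave 276.5, 127.7 and 181.3 in hypoxia against 178.2, 160.1 and 158.7 in normoxia in triCH1flox1, triCH1flox2_1 and triCH1flox2_2. In flox1, flox2_1 and flox2_2 it gave 414.3, 192.2 and 205.5 in hypoxia against 125.9, 139 and 168.4 in normoxia. The control groups did not overlap, the triCH1 groups did, and 1 line, triCH1flox2_1, was lower in hypoxia.

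The Per1 response was 0.16 ± 0.31 in triCH1 lines (limma adjusted p = 0.98) and 0.75 ± 0.31 in control lines (limma adjusted p = 0.729), and neither was called. The unadjusted limma p in control lines was 0.0313, and without line flox1, which had the highest hypoxia value, the response was 0.34. The difference between line types was -0.59, with a 95% interval of -1.54 to 0.36. Over both line types the response was 0.45 ± 0.22 (limma adjusted p = 0.48).

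Per2 had 3 low probe sets. The brightest (1417602_at, mean 67.0) read 70.8, 90.4 and 49.2 in hypoxia against 32.8, 61.2 and 53.9 in normoxia in triCH1flox1, triCH1flox2_1 and triCH1flox2_2. It read 109.1, 90.5 and 123.3 in hypoxia against 70.7, 40.9 and 11.1 in normoxia in flox1, flox2_1 and flox2_2. Thus 5 of 6 lines were higher in hypoxia and the control groups did not overlap, but these signals are low and were not tested. The others averaged 36.4 (1417603_at) and 35.1 (1457350_at), each higher in hypoxia in 3 of 6 lines.

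Cry1, the cryptochrome repressor, had well-measured signals that did not separate by oxygen. Its probe set (1433733_a_at) gave 502.1, 518.8 and 543 in hypoxia against 503.8, 726.5 and 595.8 in normoxia in triCH1flox1, triCH1flox2_1 and triCH1flox2_2. In flox1, flox2_1 and flox2_2 it gave 501.4, 730 and 628.2 in hypoxia against 584.1, 643.9 and 439.7 in normoxia. The mean response was -0.02 ± 0.14 (limma adjusted p = 0.978), with a 95% interval of -0.33 to 0.29.

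Nr1d1 and Nr1d2 encode REV-ERBα and REV-ERBβ, the repressors that oppose RORα at Bmal1. Nr1d1 (1426464_at) read 191.2, 76.1 and 34.7 in hypoxia against 207.6, 120 and 142.3 in normoxia in triCH1flox1, triCH1flox2_1 and triCH1flox2_2. It read 239.5, 151.3 and 88.7 in hypoxia against 134.1, 176.1 and 142.8 in normoxia in flox1, flox2_1 and flox2_2. All lines but flox1 were lower in hypoxia, by widely different amounts, and the groups overlapped in both line types.

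The Nr1d1 response was -0.74 ± 0.44 in triCH1 lines (limma adjusted p = 0.894) and -0.37 ± 0.31 over both line types (limma adjusted p = 0.737), and it was not called. Single lines ranged between -1.57 and 0.75. Nr1d2 (1416958_at) read 635.4, 670.5 and 772.5 in hypoxia against 385.6, 523.5 and 721.8 in normoxia in triCH1flox1, triCH1flox2_1 and triCH1flox2_2. It read 501.1, 428.1 and 865 in hypoxia against 492.6, 768.9 and 508.4 in normoxia in flox1, flox2_1 and flox2_2. All lines except flox2_1 were higher, and the mean response was 0.18 ± 0.20 (limma adjusted p = 0.819). The second Nr1d2 probe set (1416959_at) was low, at a mean of 42.1.

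Dbp, a PAR bZIP factor and direct CLOCK target that drives D-box genes, was close to the limit on signal. Its tested probe set (1438211_s_at) gave 130.1, 175.2 and 117.5 in hypoxia against 168.9, 112 and 109.4 in normoxia in triCH1flox1, triCH1flox2_1 and triCH1flox2_2. In flox1, flox2_1 and flox2_2 it gave 22.9, 96 and 139.4 in hypoxia against 96.7, 139.7 and 122.8 in normoxia. The groups overlapped in triCH1 lines and in control lines, with flox1 in hypoxia the lowest of the 12 arrays. The response was -0.58 ± 0.41 in control lines (limma adjusted p = 1) and -0.24 ± 0.29 over both line types (limma adjusted p = 0.844). The other Dbp probe set (1418174_at, mean 89.3), low and not tested, was higher in hypoxia in 4 of 6 lines.

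**Figure D4:**
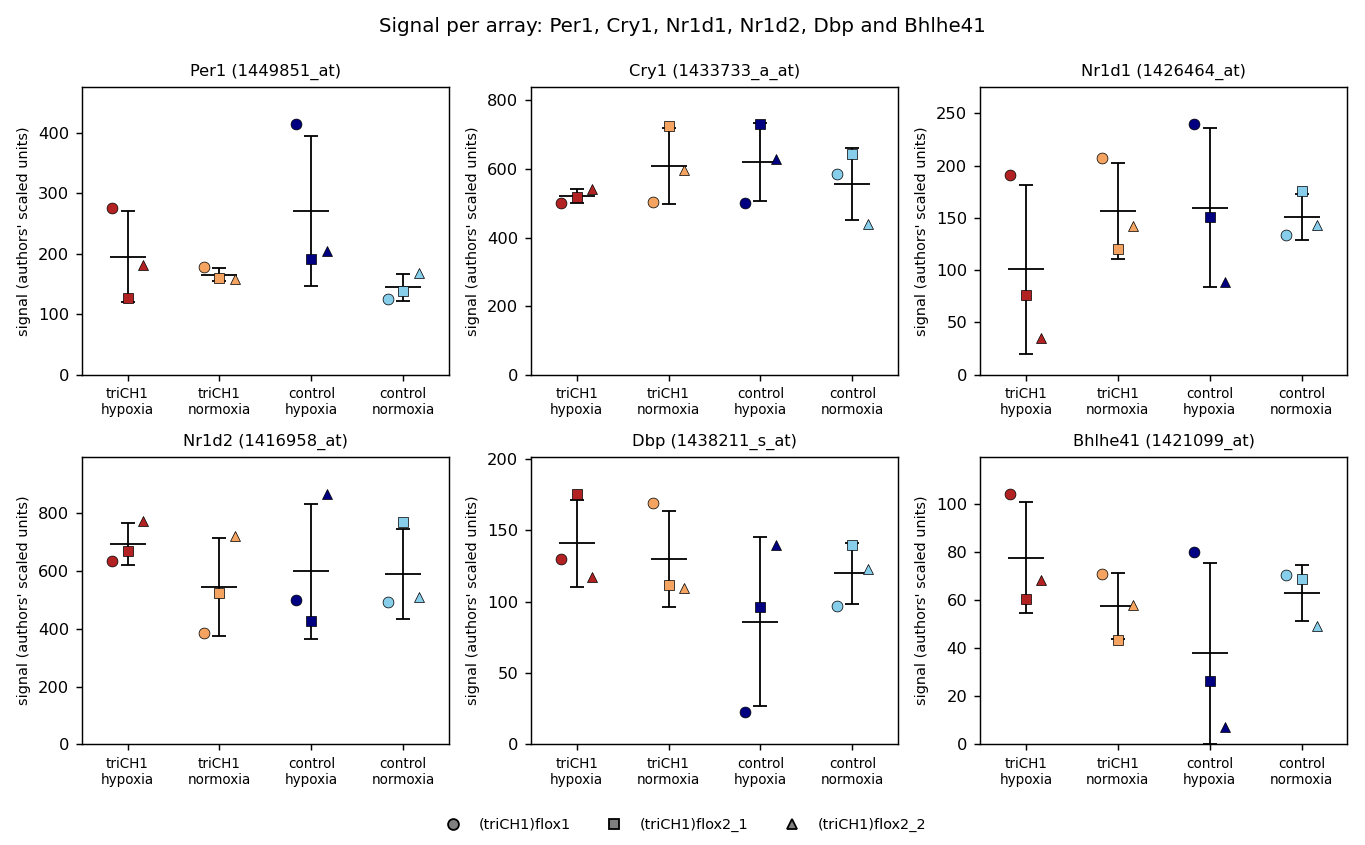
Signal of Per1, Cry1, Nr1d1, Nr1d2, Dbp and Bhlhe41 (1421099_at) on each of the 12 arrays, in the authors' scaled units, by group. Symbols mark lines, dashes the group mean and bars the SD of 3 arrays. Hypoxia and normoxia arrays overlap in every panel and line type except for Per1 in control lines, at 192.2 to 414.3 in hypoxia against 125.9 to 168.4 in normoxia.

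Counted by line type, 4 of 12 probe sets (Ciart and 3 of Rora) were called higher in hypoxia in triCH1 lines, where 0.63% of all tested probe sets were called higher and 0.00529% lower. In control lines 6 of 12 were (Ciart, Bhlhe40 and 4 of Rora), against 0.799% higher and 0.0317% lower of all. No member was called lower in either. The hypoxia arrays lay wholly above the normoxia arrays for 7 of 12 in triCH1 lines (5.64% of all tested) and 8 of 12 in control lines (4.66%). The 8 are the 7 of Ciart, Bhlhe40 and Rora with Per1. Ciart and the 5 tested Rora probe sets averaged under 100 over the 6 normoxia arrays. They entered these counts through the hypoxia arrays, where they are high, and the Rora probe sets report on 1 gene.

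These counts within a line type rest on few arrays. Without line triCH1flox2_1 the triCH1 count was 1, and it was 2 without line triCH1flox2_2, without the hypoxia array of triCH1flox1 or triCH1flox2_1, or without the normoxia array of triCH1flox2_2. The control count was 1 without line flox2_1 or flox2_2, 2 without line flox1 or the hypoxia array of flox2_1 or flox2_2, and 3 without the hypoxia array of flox1 or the normoxia array of flox1 or flox2_2. Averaged over both line types, it was 7 in all 18 omissions.

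The study's central question was whether loss of CH1 alters the hypoxia response. None of the 12 probe sets was called for a difference in response between triCH1 and control lines. By limma, 0 of 12 were called, as were 0% of all tested probe sets, and 0 of 12 had an unadjusted p under 0.05 (0.693% of all). Egln3 was not called either. Its responses were 2.08 to 2.355 in single triCH1 lines and 3.418 to 3.77 in single control lines. The difference, triCH1 minus control, was 0.52 ± 0.31 for Ciart (95% interval -0.15 to 1.18) and -0.27 ± 0.37 for Bhlhe40 (-1.06 to 0.51). It was 0.49 ± 0.36 for Rora 1424034_at (-0.28 to 1.26), -0.73 ± 0.62 for Nr1d1 (-2.07 to 0.61) and 0.69 ± 0.58 for Dbp (-0.57 to 1.94). The limma adjusted p was 1 for each. The intervals include 0 and also differences of 1 log2 unit in at least 1 direction, so equal responses are not shown.

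Setting triCH1 against control lines at the same oxygen level gave no calls either. In hypoxia 0 of 12 were called and 0 had an unadjusted p under 0.05, against 0.00529% called higher, 0.0688% called lower and 7.97% with an unadjusted p under 0.05 among all. There the difference was 0.25 ± 0.22 for Ciart (limma adjusted p = 0.788), -0.45 ± 0.26 for Bhlhe40 (limma adjusted p = 0.696) and -0.24 ± 0.25 for Rora 1424034_at (limma adjusted p = 0.83). In normoxia 0 of 12 were called (0% higher and 0.00529% lower of all), and Ciart differed by -0.26 ± 0.22 (limma adjusted p = 0.905).

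Among the members, Rora had the lowest unadjusted p-values in that normoxia comparison. Probe set 1424034_at was at 69.9 ± 22.2 in triCH1 normoxia and 128 ± 20.9 in control normoxia (SD, n = 3 each), and the groups did not overlap. The difference was -0.73 ± 0.25 and did not pass (limma adjusted p = 0.485). Its unadjusted limma p was 0.0118. All 3 members with an unadjusted p under 0.05 were Rora probe sets, against 7.56% of all tested, and 2 of 12 lay wholly lower in triCH1 normoxia, against 4.64%. In hypoxia 1 of 12, Rora 1455165_at, lay wholly lower in triCH1 lines, against 6.05% of all. The summed neural markers also differed by line type, at 112 to 294 in triCH1 normoxia against 344 to 414 in control normoxia, and their part in this was not tested.

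By Pearson's r over the 12 arrays, on the log2 scale, the genes most like Ciart were Bnip3 (0.985), Ak4 (0.97) and Pdk1 (0.969). For Bhlhe40 they were Slc2a1 (0.98), Aldoa (0.971) and Pgam1 (0.969), and for Rora 1424034_at they were Plekha2 (0.952), Rgcc (0.942) and Kdm3a (0.938). Bnip3, Ak4, Pdk1, Slc2a1, Aldoa, Pgam1 and Kdm3a are known as hypoxia-inducible genes. These are descriptions: the arrays share the oxygen contrast and the 6 lines.

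Of 25 other clock genes on the wider list, 23 had a probe set used here and 17 were tested, with 1 probe set per gene for the count. Averaged over both line types, 2 of 17 were called higher (Nampt and Nfil3) and 1 lower (Csnk1d), so most of the clock did not pass the test. In triCH1 lines 1 of 17 was called and in control lines 1 of 17, Nampt in both.

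Nampt encodes the rate-limiting enzyme of NAD salvage, an output of the clock. Its probe set 1417190_at read 1697.2, 1820.2 and 1811 in hypoxia against 466.3, 767.2 and 649.9 in normoxia in triCH1flox1, triCH1flox2_1 and triCH1flox2_2. It read 1237.5, 2012.4 and 1968.3 in hypoxia against 204, 533.5 and 425.7 in normoxia in flox1, flox2_1 and flox2_2. Every hypoxia array was above every normoxia array, in both line types. The Nampt response was 1.50 ± 0.30 in triCH1 lines (limma adjusted p = 0.0376) and 2.17 ± 0.30 in control lines (limma adjusted p = 0.00117), and 1.84 ± 0.21 over both (limma adjusted p = 0.000137). The triCH1 call was lost in 12 of 18 omissions, with limma adjusted p up to 0.392, and with no variance trend (0.0763). With the line as a replicate block it was kept (limma adjusted p = 0.000236). The difference between line types was -0.68, with a 95% interval of -1.59 to 0.24. Its other tested probe sets moved the same way in 6 of 6 lines, by 1.70 ± 0.23 (1455320_at, limma adjusted p = 0.000628) and 0.78 ± 0.20 (1448607_at, limma adjusted p = 0.0706).

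Nfil3, the bZIP repressor that opposes DBP at D-boxes, had a mean response of 0.51 ± 0.11 (limma adjusted p = 0.0375) and was higher in 6 of 6 lines. The Nfil3 call was kept only without the normoxia array of triCH1flox2_2 or of flox2_2 and was lost in the other 16 of 18 omissions, with limma adjusted p up to 0.212. It was also lost for Nfil3 with no limit on signal (0.0514), quantile normalization (0.0539), median centring (0.0539), no variance trend (0.054) and floxed p300 lines alone (0.354). With the line as a replicate block the Nfil3 call was kept (limma adjusted p = 0.0177). Csnk1d, the kinase CK1δ that phosphorylates PER proteins, had a response of -0.73 ± 0.15 on the probe set used (1437690_x_at, limma adjusted p = 0.0178). Csnk1d was not called in the floxed p300 lines alone (limma adjusted p = 0.158), and its call was lost in 6 of 18 omissions (up to 0.118). Its probe sets disagreed: 1415825_s_at and 1449932_at gave -0.62 ± 0.11 and -0.74 ± 0.12 (limma adjusted p = 0.00839 and 0.00425), both lower in 6 of 6 lines. Against this, 1418889_a_at and 1456727_a_at gave 0.48 ± 0.11 and 0.49 ± 0.12 (limma adjusted p = 0.0524 and 0.0686), higher in 6 of 6 lines, and the mean of all Csnk1d probe sets was -0.22 (limma adjusted p = 0.381). No direction is given for the gene.

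The core activators did not pass. Bmal1 (1425099_a_at) was higher in 6 of 6 lines, by 0.32 ± 0.13 on average (limma adjusted p = 0.357), and Clock changed by 0.04 ± 0.27 (1418659_at, limma adjusted p = 0.98). Cry2 (1426383_at) changed by 0.35 ± 0.21 (limma adjusted p = 0.6) and Tef, a PAR bZIP factor like Dbp, by -0.17 ± 0.16 (1424175_at, limma adjusted p = 0.773). Npas2, Bmal2, Per3, Rorb, Hlf and Fbxl21 had mean signals under 100, among them 10.4 for Npas2, 52.9 for Per3 and 87.0 for Bmal2, and were not tested.

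**Figure D5:**
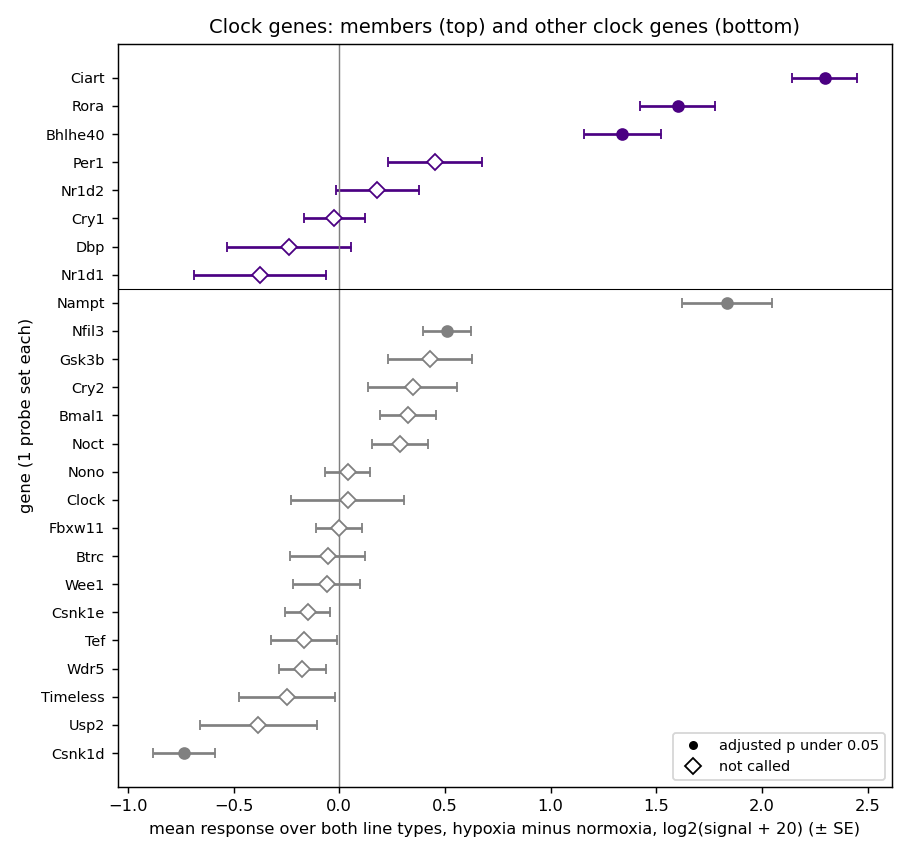
Mean response over both line types (hypoxia minus normoxia, log2(signal + 20), bars SE) for the tested members (top, purple) and the 17 other tested clock genes (bottom, grey), 1 probe set each. Filled circles have a limma adjusted p under 0.05 and open diamonds do not. Ciart (2.30), Rora (1.60) and Bhlhe40 (1.34) stand above the other members, and Nampt (1.84) above the other clock genes.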

How the data were processed

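Total RNA of 12 samples was measured on 1-colour Affymetrix Mouse430_2 arrays. Per the labels, the authors computed the deposited linear intensity signals with the Statistical algorithm of Affymetrix, using a scaling target of 500; no software version or other normalization is given in the sources used here. Checked on the values, the trimmed mean of each array was 499 to 499.9. Of 45101 probe sets, 64 controls were left out. GEO's platform annotation gave 1 symbol to 34945, several to 932 and none to 9160.

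Here, log2(signal + 20) was fitted with 4 group means, leaving 8 residual degrees of freedom, for 18903 probe sets whose mean reached 100 (limma 3.58.1, lmFit and eBayes with trend, R 4.3.3). Tests were two-sided, with Benjamini-Hochberg adjustment within each of the contrasts and a threshold of 0.05. Data were simulated with independent normal noise, without a line effect, and with the same change in both line types. On these simulated data a change of 1 log2 unit was called in 72% of probe sets for the mean response, 42% for triCH1 and 50% for control lines, and a change of 2 in 98%, 94% and 94%. Such rates do not cover the difference in response between line types, which held no change there. The number of arrays limits the precision, and p-values measure only the spread between these samples.

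Hypoxia and normoxia arrays of one line are paired by the line name in the labels. Their correlations after removal of group means were 0.542, 0.575 and 0.346 for triCH1flox1, triCH1flox2_1 and triCH1flox2_2, and 0.472, 0.284 and -0.0199 for flox1, flox2_1 and flox2_2. The line as a block was therefore an alternative fit. Arrays correlated at r of 0.936 to 0.962 and 0 pairs were identical. All arrays are of 1 lot per the labels, and no scan date was used, so no batch could be tested.

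The text names all members, and of the wider list the called genes and the core clock genes, each by the probe set with the highest mean. Likeness was taken over tested genes. Members and lists were chosen with earlier results of these data known. Promoter windows came from RefSeq tables of GRCm38.p6 (32851 windows, 27025 genes). Other settings were pseudocounts of 1 and 100, no limit on signal or 200, quantile normalization, median centring, no variance trend, only the arrays of a contrast, the block, floxed p300 lines alone, the floxed gene as a covariate, 1 value per gene, and leaving out each array or line.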

Additional observations from a re-analysis of the deposited data

How the results depend on the processing

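Of 53 values of single probe sets, 22 were called, and none of these changed direction in the 8 to 11 other settings run for each or in 18 omissions of an array or line. The count of called members in triCH1 lines, 4, became 2 with a limit of 200. The count in control lines, 6, became 2 with no limit on signal and 3 with a limit of 200, with only the arrays of the contrast, with floxed p300 lines alone and with 1 value per gene. The count over both line types, 7, became 3 with a limit of 200 (5 members then tested) and 3 with 1 value per gene (8 tested). The limit of 200 and the value per gene leave fewer members to test; otherwise the cause was not tested. Over the 18 omissions the counts were 1 to 5 in triCH1 lines, 1 to 6 in control lines and 7 to 7 over both, and 0 in the other comparisons. With the line as a replicate block the counts were 5 in triCH1 lines, 6 in control lines and 7 over both. The block changed 2 calls among these values, Bhlhe40 in triCH1 lines (limma adjusted p = 0.000261) and Csnk1d in control lines (0.0316), and no other. With floxed p300 lines alone, the sign turned for Per1 in triCH1 lines (-0.0572) and for the mean responses of Cry1 (0.018), Dbp (0.0874) and Clock (-0.15), none of them called. Over the omissions, uncalled values that crossed 0 were the Bhlhe40 difference (-0.53 to 0.0351), Per1 in triCH1 lines (-0.11 to 0.40) and the mean responses of Cry1 (-0.11 to 0.0672), Dbp (-0.43 to 0.0397), Nr1d2 (-0.00923 to 0.38) and Clock (-0.24 to 0.27). Low signal limits Per2, Bhlhe41 and Dbp most.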

Other observations

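Line flox1 stood apart in hypoxia in 3 clock-controlled genes, a pattern chosen after its values were seen. Its hypoxia array had the highest Per1 (414.3) and Nr1d1 (239.5) and the lowest Dbp (22.9) signal of the 12 arrays. The responses of flox1 were 1.57 for Per1, 0.75 for Nr1d1 and -1.44 for Dbp on the log2(signal + 20) scale, each the most extreme of the 6 lines in that direction. On the low second Dbp probe set (1418174_at) the response of flox1, -0.84, was also the lowest of the 6 lines. Its hypoxia array read 68.2 there, against 67.1 in hypoxia and 14.6 in normoxia in flox2_2, so it was not the lowest array. The flox1 hypoxia array had the highest scale factor of all (4.28), and its part in these values was not tested.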
